A study of Danio rerio with 30 samples.

Results

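The macrophage-associated genes marco and c1qc were examined in zebrafish olfactory tissue exposed to copper, to the insecticide chlorpyrifos, or to both. They are 2 of the 8793 genes named by a probe set with 1 symbol on the array, and 2 of the 6448 such genes that passed the filter on low values (a log2 value over 4 on 3 or more arrays). Each was found by its symbol in the platform annotation and was read by 1 probe set (Entrez gene 571584 for marco and 449803 for c1qc). Both exceeded 4 in all 30 arrays. The pair was chosen because both were higher with copper at 0.25 when averaged over the chlorpyrifos levels. That difference and its parts are therefore given as a description without a test.

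marco encodes a class A scavenger receptor with a collagen-like stalk, which in mammals sits on macrophages and binds bacteria and inhaled particles. c1qc encodes the C chain of C1q, which together with the A and B chains forms the recognition molecule of the classical complement pathway. In mammals C1q binds antibody complexes and dying cells, and tissue macrophages and microglia are major sources of it. The olfactory epithelium of fish lies in direct contact with the water, and dissolved copper is a known toxicant of its sensory neurons. Resident phagocytes remove dead neurons there, and the neurons are replaced throughout life. In the GRCz12tu gene table marco lies between en1a and c1ql2, and c1qc lies between its partner genes c1qb and c1qa.

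Adult AB strain fish, one year old, were assigned to 10 treatments, and 30 Affymetrix Zebrafish arrays were hybridised, 3 for each treatment. The groups were chlorpyrifos (CPF, an organophosphate that inhibits acetylcholinesterase) at 0.1, 0.25 and 0.6, copper (Cu) at 0.1, 0.25 and 0.6, each CPF concentration together with Cu 0.25, and an unexposed control. The concentration unit and the length of exposure are not given in the sources used here. One label gives the tissue as olfactory rosettes and another adds the olfactory bulbs and telencephalons. No allele or transgene is named for any group. Nothing states that the 3 arrays of a group came from independent exposures, so p-values measure only the spread between these arrays.

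The deposited values were log2 expression values made by the authors with GCRMA, and array medians lay between 5.51 and 5.61. Sample titles carry 3 dates, which are treated here as title batches of 12, 13 and 5 arrays and entered each fit as a term. Cu 0.6 had no array in title batch 1. The 5 arrays of title batch 3 were 1 each of control, Cu 0.25, Cu 0.6, CPF 0.25 + Cu 0.25 and CPF 0.6 + Cu 0.25. That batch was thus uneven between arrays with and without copper. CPF 0.25 replicates 1 and 3, Cu 0.25 replicate 3 and CPF 0.6 replicate 2 had the 4 highest pancreas marker levels. Some results that differ without these arrays are also given without them. The numbers of probe sets called in some CPF comparisons changed too. They are not given without these arrays, because CPF 0.25 then had 1 array. Levels in bulk tissue cannot tell more cells of a type from more RNA per cell.

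The copper series asked whether the 2 transcripts followed the copper concentration. Its control and Cu 0.25 arrays also entered the choice of the genes, which favoured Cu 0.25 lying above control. marco stood at 6.56, 7.02 and 6.56 on the log2 scale in control arrays, at 7.22, 7.19 and 7.58 with Cu 0.1, at 7.60, 8.27 and 7.19 with Cu 0.25 and at 7.59, 7.61 and 8.31 with Cu 0.6. Every array with copper alone was above every control array, and the arrays of neighbouring copper levels overlapped between Cu 0.1 and Cu 0.25 and between Cu 0.25 and Cu 0.6. The 3 arrays at Cu 0.6 all lay above the 3 at Cu 0.1. All 3 Cu 0.25 arrays above all 3 controls was found for 6.98% of probe sets. Means were 6.71 ± 0.27 in control, 7.33 ± 0.22 at Cu 0.1, 7.69 ± 0.55 at Cu 0.25 and 7.84 ± 0.41 at Cu 0.6 (SD, n = 3 each).

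c1qc stood at 6.28, 6.09 and 6.06 in control arrays, at 5.75, 6.04 and 6.42 with Cu 0.1, at 7.30, 7.59 and 6.45 with Cu 0.25 and at 7.29, 6.40 and 6.92 with Cu 0.6. The Cu 0.1 arrays spread to both sides of the controls, with 1 above all of them and 2 below all of them. All 6 arrays at Cu 0.25 and Cu 0.6 were above the controls, but Cu 0.6 replicate 2 was just below the highest Cu 0.1 array. Means were 6.14 ± 0.12 in control, 6.07 ± 0.33 at Cu 0.1, 7.11 ± 0.60 at Cu 0.25 and 6.87 ± 0.45 at Cu 0.6 (SD, n = 3 each). The 2 highest c1qc means of the copper series were thus at its 2 higher concentrations, whereas the lowest copper concentration was close to control. The choice of the gene favoured the place of Cu 0.25 above control, and only Cu 0.1 and Cu 0.6 had no part in it.

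**Figure D1:**
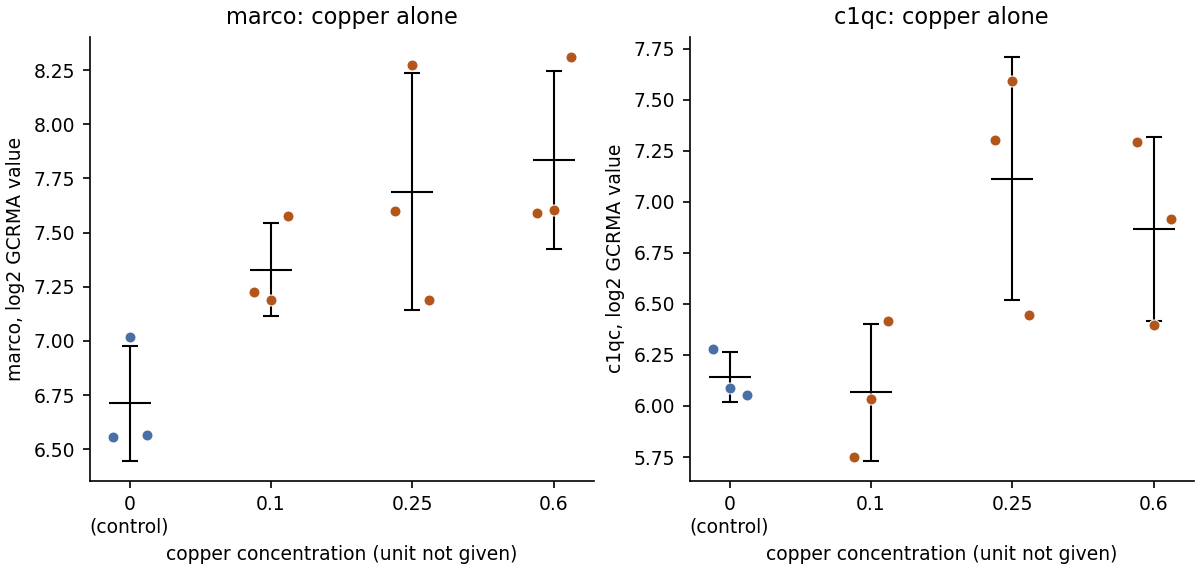
Log2 expression of marco (left) and c1qc (right) in each array of the control and of the 3 copper groups, with copper concentration on the horizontal axis (unit not given). Points are arrays and the black marks are group means ± SD (n = 3); marco means lie at 6.71, 7.33, 7.69 and 7.84 from control to Cu 0.6, and c1qc means at 6.14, 6.07, 7.11 and 6.87.

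The comparison of Cu 0.6 with Cu 0.1 shares no array with the difference the genes were chosen on. marco was higher by 0.57 ± 0.32 on the log2 scale (SE, 95% interval −0.10 to 1.24), which did not pass (limma adjusted p = 0.534 over 10531 probe sets). c1qc was higher by 0.77 ± 0.26 (95% interval 0.23 to 1.32) and did not pass either (limma adjusted p = 0.236, unadjusted p = 0.0073). In this comparison 16 probe sets passed, or 0.152% of those tested. For marco all 3 arrays at Cu 0.6 lay above all 3 at Cu 0.1, a separation in that direction that 10.8% of all probe sets had. Exact two-sided permutation tests on values with title batch left in gave p = 0.1 for marco and p = 0.2 for c1qc. The smallest p that 3 against 3 arrays allow is 0.1. With the title batch terms removed, all 3 c1qc arrays at Cu 0.6 lay above all 3 at Cu 0.1. The share of probe sets with that separation after removal was not counted. Within title batch 2, which held 2 arrays of each group, the differences were 0.55 for marco and 1.02 for c1qc.

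Both comparisons of a single copper level with control share the 3 control arrays with the choice of the genes. With Cu 0.6, marco was higher by 1.08 ± 0.32, or 2.12-fold (95% interval 0.42 to 1.74 on the log2 scale, limma adjusted p = 0.0850). c1qc was higher by 0.63 ± 0.26 (95% interval 0.10 to 1.17, limma adjusted p = 0.231). Neither passed the threshold of 0.05, which 1.62% of probe sets did. All 3 Cu 0.6 arrays lay above all 3 control arrays for both genes, as for 11.4% of probe sets. The difference within title batches was uneven for c1qc, at 1.05 in title batch 2 (2 arrays against 1) and 0.12 in title batch 3 (1 against 1), while for marco it was 1.39 and 1.05.

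At the lowest copper concentration marco was 0.52 ± 0.32 above control (95% interval −0.15 to 1.18, limma adjusted p = 0.556). c1qc differed by −0.14 ± 0.26 (95% interval −0.68 to 0.40, limma adjusted p = 0.854). By limma 0% of probe sets passed in this comparison, and 1136 had an unadjusted p below 0.05. The separation of all 3 Cu 0.1 arrays above the controls, seen for marco, was found for 9.44% of probe sets.

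Copper at 0.25 was applied at each of 4 CPF levels, control included, which places 12 arrays with copper beside 12 without. marco had a lowest, median and highest value of 7.19, 7.80 and 8.74 with Cu 0.25, against 6.56, 6.71 and 7.62 without. Of the 12 arrays with copper, 9 were above every array without it and all 12 were above the median of those without. c1qc had 6.21, 6.93 and 7.59 with Cu 0.25, against 5.76, 6.04 and 6.45 without. Here 11 of 12 arrays with copper were above every array without, the exception being CPF 0.6 + Cu 0.25 replicate 3. In these values, with title batch left in, all 12 arrays with copper above all 12 without was found for 0% of probe sets. That is a stricter mark than 9 or 11 of 12, for which the share of probe sets was not counted. The choice of the genes favours high counts here, and genes named below reached them too, with 9 of 12 for apoc1 and 11 of 12 for pomp. With the title batch terms removed, the counts were 10 of 12 for marco and 12 of 12 for c1qc. The share of probe sets was not counted after that removal.

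The averaged difference was 0.98 ± 0.16 (SE) on the log2 scale for marco, or 1.98-fold, and 0.91 ± 0.13 for c1qc, or 1.88-fold. These values chose the genes, and 4.35% of all probe sets passed in that contrast. Within title batches 1 and 2 the averaged difference was 0.87 and 0.91 for marco and 0.81 and 0.92 for c1qc. Without the 4 pancreas-rich arrays and in every other setting tried, it remained above 0.

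At each CPF level the size of the copper difference was described separately. In the groups with CPF 0.1, marco read 8.20, 7.84 and 7.93 with copper, against 6.71, 7.39 and 6.56 without. In the groups with CPF 0.25 it read 7.77, 8.74 and 7.75 with copper, against 6.64, 7.30 and 6.70 without. In both settings the arrays with and without copper did not overlap, a separation that 6.2% and 7.89% of probe sets had at CPF 0.1 and CPF 0.25. With CPF 0.6 the groups did overlap, with 7.63, 8.01 and 7.43 in the mixture, against 6.57, 7.62 and 7.42 with CPF alone.

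c1qc followed the same layout. It read 7.07, 6.93 and 6.87 with CPF 0.1 + Cu 0.25, against 6.09, 6.45 and 5.76 with CPF 0.1. It read 6.69, 7.48 and 7.27 with CPF 0.25 + Cu 0.25, against 6.03, 5.96 and 5.83 with CPF 0.25. Neither pair of groups overlapped. The mixture with CPF 0.6 gave 6.93, 6.66 and 6.21, against 6.03, 6.34 and 5.76 with CPF 0.6 alone, and its lowest array fell within the range of CPF 0.6 alone.

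The fitted copper differences at control, CPF 0.1, CPF 0.25 and CPF 0.6 were 0.98, 1.11, 1.30 and 0.55 for marco, each ± 0.31 to 0.32 (SE). For c1qc they were 0.97, 0.86, 1.27 and 0.53, each ± 0.25 to 0.26. In these values both genes had their smallest copper difference at CPF 0.6 and their greatest at CPF 0.25. Without the 4 pancreas-rich arrays the greatest was that of Cu 0.25 against control, at 1.27 for marco and 1.29 for c1qc, and the smallest was still at CPF 0.6. Whether the copper difference varied with the CPF level was tested as an interaction, and it did not pass for marco (F = 1.03, limma adjusted p = 0.9999) or c1qc (F = 1.45, limma adjusted p = 0.9999). By limma 0% of probe sets passed that interaction test, and 386 had an unadjusted p below 0.05.

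**Figure D2:**
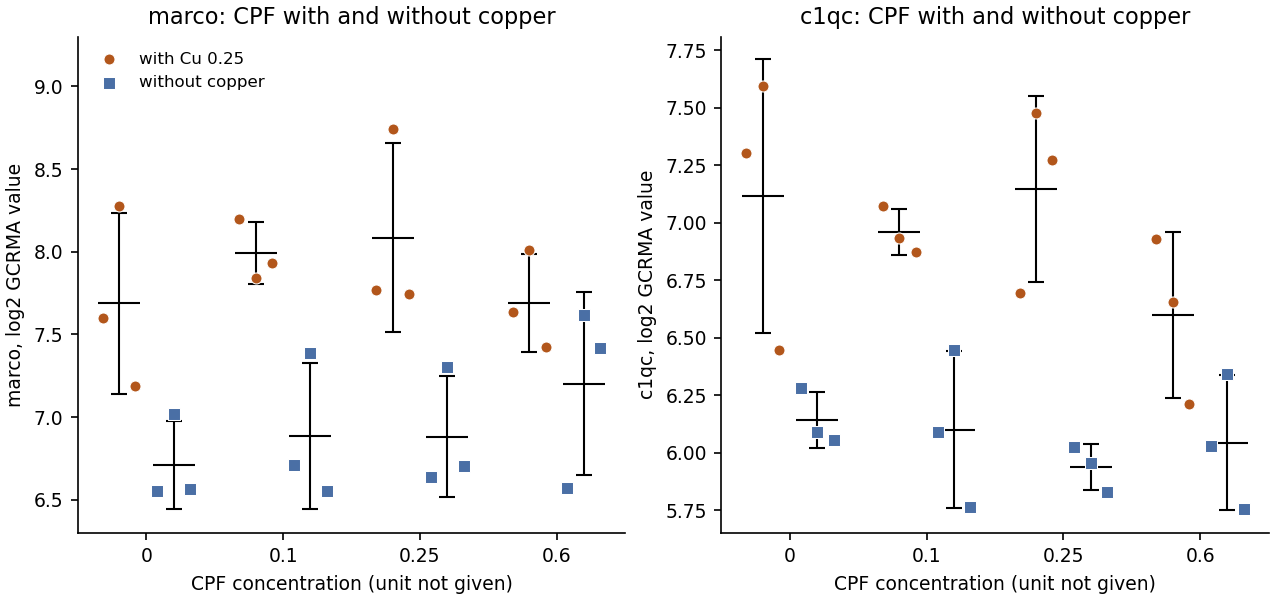
Log2 expression of marco and c1qc by CPF concentration (unit not given), with Cu 0.25 (orange circles, left) and without copper (blue squares, right). Points are arrays and the black marks are group means ± SD (n = 3); the copper difference is smallest at CPF 0.6, at 0.55 for marco and 0.53 for c1qc in the fit.

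CPF without copper asked whether the insecticide alone moved either transcript. marco averaged 6.88 ± 0.44, 6.88 ± 0.37 and 7.20 ± 0.55 with CPF 0.1, 0.25 and 0.6, against 6.71 ± 0.27 in control (SD, n = 3 each). With CPF 0.6, replicate 1 stood at the control level and replicates 2 and 3 were above every control array. The differences from control were 0.11, 0.07 and 0.43 (limma adjusted p = 0.958, 0.980 and 0.757), and the 95% interval at CPF 0.6 ran from −0.24 to 1.1. c1qc averaged 6.10 ± 0.34, 5.94 ± 0.10 and 6.04 ± 0.29 with the 3 CPF levels, against 6.14 ± 0.12 in control. Its differences of −0.01, −0.27 and −0.07 did not pass (limma adjusted p = 0.993, 0.925 and 0.956). Their 95% intervals were −0.56 to 0.53, −0.81 to 0.27 and −0.61 to 0.47.

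Averaged over both copper levels, CPF did not pass for marco (F = 0.444, limma adjusted p = 0.991) or c1qc (F = 0.960, limma adjusted p = 0.985). For CPF 0.1 and 0.25 against control 0% of probe sets passed, with 723 and 609 at an unadjusted p below 0.05. For CPF 0.6 the share was 0.0095%, and for CPF averaged over copper it was 0.0285%. These comparisons bound the size of a CPF difference in these 2 genes but do not show that there was none.

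Ordered by mean, the 4 lowest marco groups were control, CPF 0.25, CPF 0.1 and CPF 0.6, and the 6 groups with copper followed. In these unadjusted means no step between neighbours exceeded the residual SD of 0.41. The largest was 0.36, between Cu 0.1 and Cu 0.25. The residual SD comes from the fit with title batch terms. With those terms removed the marco means were 7.23 at Cu 0.1 and 7.69 at Cu 0.25, farther apart than 0.41. The c1qc order had a single step larger than its residual SD of 0.33. That step, of 0.46, lay between control and CPF 0.6 + Cu 0.25. Below it were the control, the 3 CPF groups and Cu 0.1, and above it were all groups with copper at 0.25 or 0.6. The choice of the genes, made on the average over these groups, favoured these sides for the 8 groups with Cu 0.25 or without copper. Only the places of Cu 0.1 and Cu 0.6 were free of it. The residual SD is that of single arrays, and the steps were not tested.

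The fit also leaves the deviation of each array from its group and title batch terms, from which the group differences that chose the genes have been removed. Across the 30 arrays these deviations of marco and c1qc had a Pearson r of 0.53 (permutation p = 0.0204) and a Spearman rho of 0.54 (permutation p = 0.0137). Both p-values are two-sided, come from 100000 permutations within groups and are 0.0204 after Benjamini-Hochberg adjustment over the 2 measures. Without CPF 0.25 + Cu 0.25 replicate 2 and CPF 0.6 replicate 1, the 2 arrays farthest from the marco median, r was 0.53. Within title batch 1 it was 0.67 (12 arrays) and within title batch 2 it was 0.42 (13 arrays). An array that was high for its group in marco tended to be high for its group in c1qc. This was not particular to the pair. The proteasome gene psmb2 had a higher r of this kind with each, at 0.62 with marco and 0.77 with c1qc. Over all genes the median r of this kind was −0.01 with marco and 0.04 with c1qc, and the share that reached 0.53 was not counted.

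**Figure D3:**
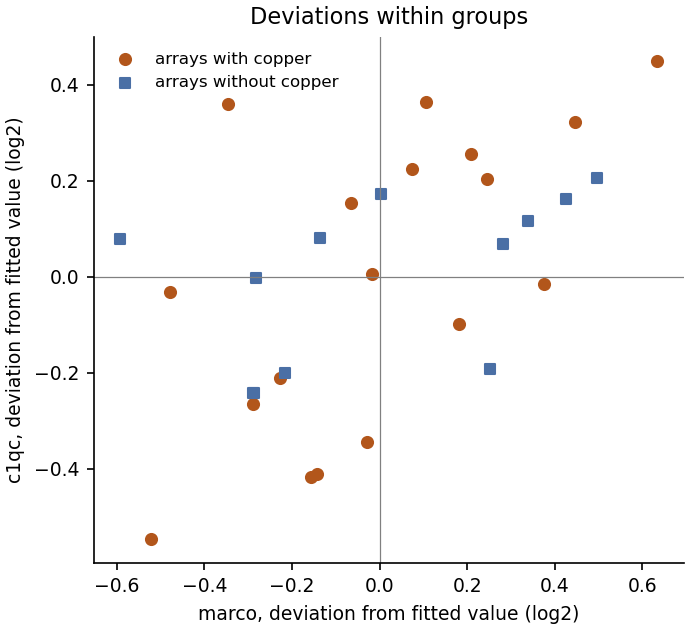
Deviation of each of the 30 arrays from its group and title batch terms, for marco (horizontal, log2) and c1qc (vertical, log2). Points are arrays, and the Pearson correlation is 0.53.

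The other classical complement genes were measured beside c1qc. No probe set with 1 symbol names c1qa or c1qb in the annotation used here, so the other C1q chains were not analysed here. Of the 3 other genes of the classical pathway list that passed the filter, c4b, a form of complement component C4, read 6.83, 7.50 and 7.25 with Cu 0.25, against 6.21, 6.91 and 5.90 in control. It read 7.14, 7.09 and 7.59 with Cu 0.6, above every control array. Averaged over the CPF levels it rose by 0.64 ± 0.16 with Cu 0.25 (limma adjusted p = 0.0225). That call was lost when title batch 3 was left out, and when replicate 2 of Cu 0.25 or of CPF 0.25 + Cu 0.25 was. The Cu 0.6 difference of 0.91 ± 0.32 did not pass (limma adjusted p = 0.151).

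The gene c4, the other C4 form, differed by 0.18 ± 0.12 (limma adjusted p = 0.441) and c1s.1, a protease of the C1 complex, by −0.17 ± 0.09 (limma adjusted p = 0.305) with averaged Cu 0.25. None of 6 measured genes of the C3, terminal and regulatory steps passed, and their median was 0.05 beside a median of 0.03 over all 6448 genes. Among them the protease gene cfi, which cleaves activated complement, had the greatest difference at 0.49 ± 0.21 (limma adjusted p = 0.207). Of 3 further genes with a C1q domain, 0 passed. With Cu 0.6 against control, 0 of 3 classical and 0 of 6 later complement genes passed.

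Other scavenger receptors were read beside marco. Of the 6 measured, 0 passed with averaged Cu 0.25. Their differences ran from −0.09 ± 0.14 for cd68, a lysosomal glycoprotein of macrophages, to 0.14 ± 0.10 for scarb2a, a lysosomal membrane receptor. The lipoprotein receptor scarb1 differed by 0.11 ± 0.08, and colec12, a collagenous scavenger receptor of endothelium in mammals, by 0.05 ± 0.09. With Cu 0.6 against control the 6 ran from −0.18 ± 0.16 for scarb1 to 0.31 ± 0.12 for lrp1aa, an endocytic receptor, and 0 passed.

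The list of macrophage and microglia genes, without marco and c1qc, had 24 measured members. With averaged Cu 0.25, 4 were higher and 0 lower, beside 2.17% of all probe sets called in each direction. apoc1, an apolipoprotein gene used as a marker of zebrafish microglia, rose by 0.65 ± 0.12 (limma adjusted p = 0.0024), and its call held in each of the 11 alternatives and 24 fits without an array. The tetraspanin gene tspan36 rose by 0.70 ± 0.16 (limma adjusted p = 0.0149), the galectin gene lgals9l1 by 0.56 ± 0.15 (limma adjusted p = 0.0396) and the chemokine gene ccl34b.1 by 0.34 ± 0.09 (limma adjusted p = 0.0358). tspan36 is also expressed by pigment cells in zebrafish. The call of tspan36 ended without title batch 3 and without control replicate 1. With 1 array omitted at a time, lgals9l1 still passed in 8 and ccl34b.1 in 10 of 24 fits. Omitting title batch 3 or the 4 pancreas-rich arrays ended both calls. The number of list genes called was 1 without title batch 3 or control replicate 1, and 2 without the pancreas-rich arrays.

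The other 20 members did not pass, among them genes of leukocytes in general. ptprc, which encodes the leukocyte phosphatase CD45, differed by 0.01 ± 0.12, the actin-bundling gene lcp1 by 0.16 ± 0.17 and coro1a, an actin regulator of leukocytes, by 0.24 ± 0.13. spi1b, a transcription factor of the myeloid lineage, differed by 0.16 ± 0.07 (limma adjusted p = 0.212). cebpb, an inflammation-linked transcription factor, lay lower at −0.65 ± 0.21 (limma adjusted p = 0.0878). The list median was 0.12 with 15 of 24 members above 0, beside a median of 0.03 and 61.0% above 0 over all genes. The receptor gene csf1ra, which marks macrophages, did not pass the filter and reached at most 2.63, and mpeg1.1 has no probe set of its own name here. The mean level of the list ran from 8.09 to 8.60 in arrays with Cu 0.25 and from 8.02 to 8.66 in those without.

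**Figure D4:**
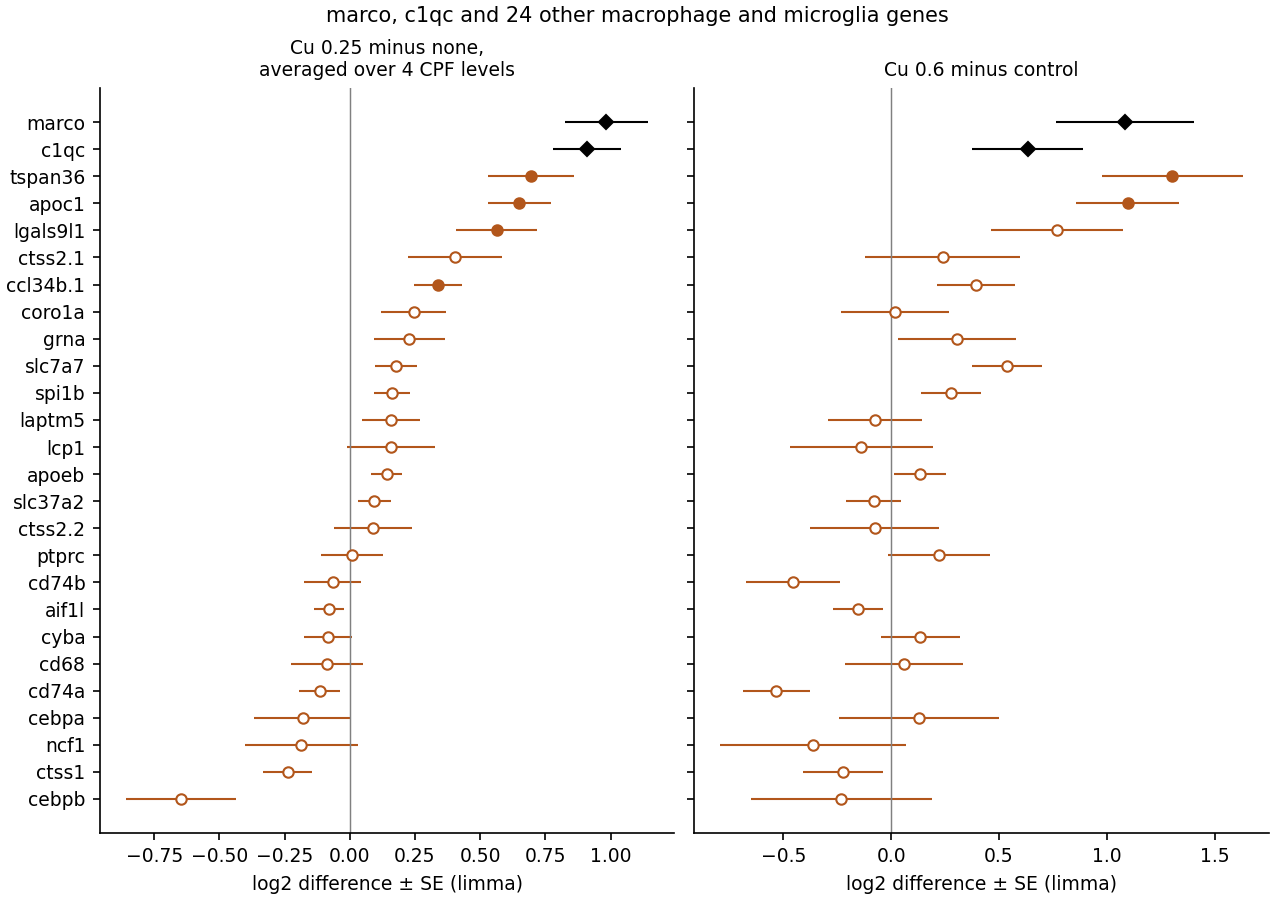
Fitted log2 difference ± SE of each measured macrophage and microglia gene for Cu 0.25 averaged over 4 CPF levels (left) and for Cu 0.6 minus control (right). Filled circles passed at a limma adjusted p below 0.05 and open circles did not; 4 of the 24 other genes passed on the left and 2 on the right. Black diamonds are marco and c1qc and are filled whatever their p. Neither gene was tested on the left, and neither passed on the right.

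With Cu 0.6 against control, 2 of the 24 were higher and 0 lower, beside 0.684% of probe sets called higher. They were again apoc1 and tspan36. apoc1 read 11.534, 11.383 and 11.101 with Cu 0.6, against 10.25, 10.12 and 10.27 in control, and rose by 1.1 ± 0.24 (limma adjusted p = 0.0194). tspan36 rose by 1.30 ± 0.33 (limma adjusted p = 0.0434). Both calls ended without title batch 3. With 1 array of the compared groups omitted at a time, apoc1 passed only without Cu 0.6 replicate 3 and tspan36 only without control replicate 3, so the count was 0 or 1. The amino acid transporter gene slc7a7, needed for microglia in zebrafish, differed by 0.54 ± 0.16 (limma adjusted p = 0.0942), and the antigen presentation gene cd74a by −0.53 ± 0.15 (limma adjusted p = 0.0833). The list median was 0.10, beside 0.07 over all genes.

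Set against Cu 0.1, Cu 0.6 had 0 of the 24 past the threshold, with a list median of 0.30 and 19 members above 0, beside 0.05 and 58.7% over all genes. Cu 0.1 against control had 0 of 24, with a median of −0.11 and 6 members above 0, beside 50% of all genes. The mean level of the list was 8.16 to 8.45 with Cu 0.6 and 7.91 to 8.16 with Cu 0.1, against 8.11 to 8.18 in control. At Cu 0.1, marco was thus above its controls, by a difference that did not pass, while most of the list lay below. The control arrays had also entered the choice of marco.

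Markers of other cells were read in the same arrays. Of 7 neutrophil genes, 0 passed in the comparisons given here. Their median was −0.14 with averaged Cu 0.25, 0.32 with Cu 0.25 against control and 0.24 with Cu 0.6 against control. It was −0.92 between CPF 0.6 + Cu 0.25 and CPF 0.6, and 0.91 between CPF 0.6 and control. The CPF 0.6 arrays were uneven, with mean neutrophil levels of 6.86, 8.80 and 8.16, against 7.13, 6.84 and 7.12 in control. The highest, replicate 2, is one of the 4 pancreas-rich arrays. mpx, the defining neutrophil peroxidase gene, did not pass the filter in any of its 4 probe sets. The 3 lymphocyte genes had a median of −0.02 and 0 passed. All 4 olfactory neuron genes (ompb, s100z, calb2a and gng13b) passed as lower with averaged Cu 0.25 and with Cu 0.6 against control. Beside them, 2.17% and 0.94% of probe sets were called lower. Like the other lists, this one was made with earlier results of these data known, which may have favoured such counts. The medians of the 4 genes were −1.32 and −2.39. Their mean level was 8.22 to 9.35 with Cu 0.25, against 9.01 to 10.24 without copper, and 7.56 to 7.75 with Cu 0.6, against 9.67 to 10.17 in control. The part that this lower level had in the values of marco and c1qc was not tested.

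Liver markers, in which 2 of 9 fell with averaged Cu 0.25, beside 2.17% of probe sets called lower, had a mean level of 5.34 to 6.15 with Cu 0.25, against 5.64 to 6.89 without. Control replicate 1 ranked 2 of all arrays in liver markers, at 6.72 against 5.64 and 5.92 in the other controls. It was not among the 4 pancreas-rich arrays, so the fits without those arrays kept it. Pancreas markers, with 0 of 5 past the threshold and a median of −0.46, had 3.78 to 5.83 with copper, against 3.87 to 7.29 without. Without the 4 pancreas-rich arrays, the marco difference between CPF 0.25 + Cu 0.25 and CPF 0.25 was 0.88 in place of 1.30, and CPF 0.25 then had 1 array. The part of liver and pancreas transcripts in the other results was not tested.

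Lysosomal genes encode the digestive enzymes that phagocytes and other cells use. Of 19 measured, 6 were higher, 0 lower and 13 did not pass with averaged Cu 0.25, beside 2.17% of probe sets called higher. This list too was made with earlier results of these data known, and that share is over probe sets rather than genes. The list median was 0.15, beside 0.03 over all genes. The cathepsin gene ctsba rose by 0.66 ± 0.07 (limma adjusted p = 9.9e-06), ctsz by 0.55 ± 0.12, lgmn, the legumain protease gene, by 0.49 ± 0.09 and ctsc by 0.40 ± 0.10. Without title batch 3 the number was 3. With Cu 0.6 against control 5 of 19 were higher, beside 0.684% of probe sets, or 1 without title batch 3 and 2 to 3 with 1 array of the compared groups omitted. ctsba rose by 1.14 ± 0.15 there. With Cu 0.6 against Cu 0.1 only ctsba passed, and it passed in 2 of the 6 fits with 1 array omitted.

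Of 20 inflammation and interferon genes measured, 1 was higher and 3 were lower with averaged Cu 0.25, beside 2.17% of probe sets in each direction, and the median was −0.01. The interferon-induced isg15 was the higher, at 0.94 ± 0.26 (limma adjusted p = 0.0365). The lower were nfkbiab, an inhibitor of NF-kappa B, and the cytokine signalling suppressors socs1a and socs3a, at −0.69 ± 0.13, −0.93 ± 0.20 and −0.90 ± 0.17. All 4 of these calls ended without the 4 pancreas-rich arrays, and isg15 passed in 7 of 24 fits with 1 array omitted. At Cu 0.6 against control 0 were higher and 5 lower, beside 0.94% of probe sets called lower, among them socs1a at −3.19 ± 0.40 and socs3a at −2.40 ± 0.34, and the median was −0.33. Both of those calls held in all 11 alternatives and all 6 fits with 1 array omitted, whereas those of ccl19a.1 and nfkbiaa passed in 0 and 1 of the 6. With Cu 0.1 against control 0 passed, the median was −0.53 and 0 of 20 members lay above 0, beside 50% of all genes. The mean level of the list was 7.17 to 7.84 with Cu 0.6 and 7.35 to 7.81 with Cu 0.1, against 7.98 to 8.08 in control.

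With averaged Cu 0.25, where 2.17% of probe sets were called higher, cell cycle genes had 5 of 17 higher and 0 lower, with a median of 0.30 beside 0.03 over all genes. Of 21 epithelium and skin genes 1 was higher, agr2, and 0 of 12 glial, 0 of 7 erythrocyte and 0 of 7 connective tissue and endothelial genes passed.

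The 5 genes with 1 symbol whose values followed each gene most closely over the 30 arrays were sought, using Pearson's r after removal of the title batch terms. For marco they were psma2b (r = 0.82), psma5 (0.81), c1qc itself (0.80), psmb2 (0.79) and pa2g4b (0.79). For c1qc they were pomp (r = 0.90), psmb1 (0.90), psmb2 (0.90), psma2a (0.86) and psma1 (0.85). The psma and psmb genes encode subunits of the 20S core of the proteasome, pomp encodes its assembly factor, and pa2g4b encodes a proliferation-associated RNA-binding protein. c1qc ranked 3 for marco, whereas marco ranked 21 for c1qc. All points share the 10 groups, so r here includes the copper difference that chose the genes.

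With the group terms removed as well, r with c1qc was 0.81 for pomp, 0.77 for psmb2 and 0.63 for psmb1. For marco it was 0.62 for psmb2, 0.52 for psma2b and 0.38 for psma5. The size of change differed from likeness of pattern. pomp read 10.52, 10.59 and 10.37 with Cu 0.25, against 10.29, 10.37 and 10.27 in control. With averaged Cu 0.25 it differed by 0.22 ± 0.05, and the 8 neighbours other than c1qc differed by 0.22 to 0.41. These values are a description, since likeness to the pair over the same arrays chose the genes. Against control, Cu 0.6 arrays, which also entered that choice, differed by 0.18 to 0.42.

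**Figure D5:**
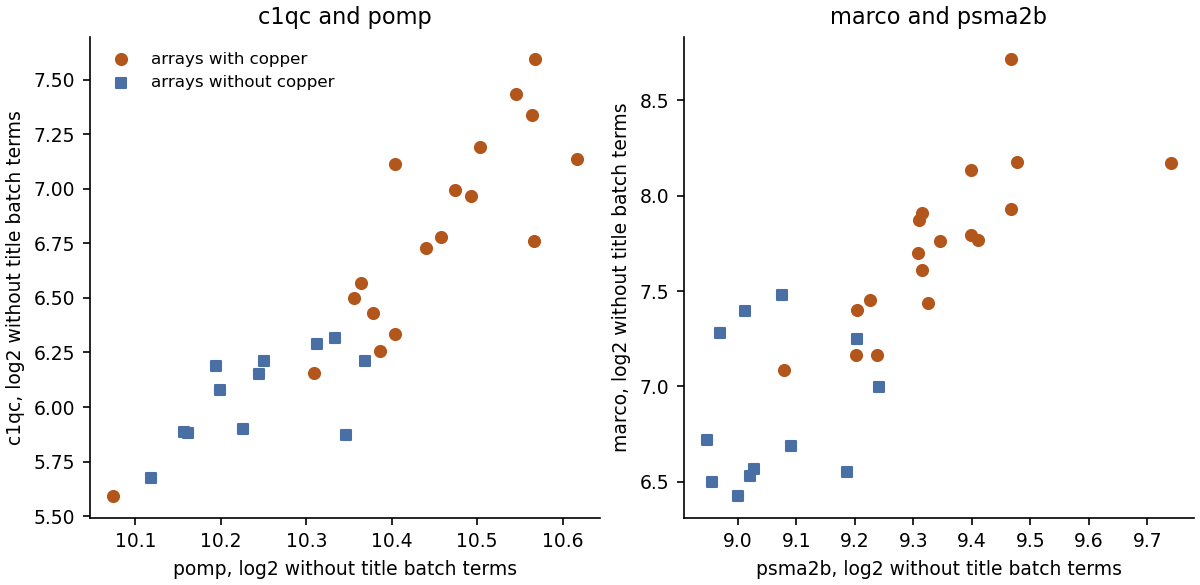
Log2 values of c1qc against pomp and of marco against psma2b in 30 arrays, after removal of the title batch terms. Points are arrays coloured by copper, and Pearson's r is 0.90 for c1qc with pomp and 0.82 for marco with psma2b.

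The members of the macrophage list were read in the same way. Their r with marco had a median of 0.31 over 24 genes, beside 0.06 over all genes. Of the 24, 7 exceeded 0.5, against 8.31% of all genes, and 0 were among the 20 genes closest to marco. These r include the copper difference that chose the pair. With the group terms removed, r of the 7 with marco ran from 0.04 for apoc1 to 0.64 for slc7a7. With c1qc the median was 0.46, beside 0.08 over all genes. Here 12 of the 24 exceeded 0.5, against 11.3% of all genes, and again 0 were among the closest 20. With the group terms removed, r of the 12 with c1qc ran from −0.03 for apoc1 to 0.67 for lcp1. Of the lysosomal genes, 4 were among the 20 closest to marco and 1 among the 20 closest to c1qc. The 4 olfactory neuron genes ran opposite, with r from −0.75 to −0.70 for marco and from −0.62 to −0.59 for c1qc. Their r also include the copper difference. The pair was chosen as higher with copper and the 4 neuron genes were lower with it, which favoured a negative r. No r with the group terms removed is given for these 4 genes, so no link beyond the copper difference is drawn.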

How the data were processed

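Transcript levels in zebrafish olfactory tissue were measured on 30 Affymetrix Zebrafish arrays. The authors deposited log2 values that they had processed with GCRMA, as the submitters' processing notes name it, with no version stated. The log2 scale was inferred from the span of the values, 1.02 to 15.73. GCRMA corrects background by probe sequence and can flatten values near the floor, so differences of low genes may be understated. That was not tested here. Of 15617 probe sets, 115 controls were left out. Of the others, 10795 had 1 symbol, 135 several and 4572 none in the platform annotation, and the reference gene table updated 1 symbol. A log2 value over 4 on 3 or more arrays was required, and 10531 probe sets met this. With 1 symbol there were 7619 of them, for 6448 genes, each read by its probe set with the highest mean. The number of arrays limits the precision.

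No further normalization was applied. Differences were fitted to all 30 arrays with lmFit and eBayes of limma 3.58.1, under R 4.3.3. The model had 10 group means and title batch as a covariate, which left 18 residual degrees of freedom. Benjamini-Hochberg values cover 10531 probe sets, with a threshold of 0.05. Groups were read from the treatment label, and replicates were numbered in accession order. The fit was tested on simulated data with known changes, 50 probe sets for each size. For Cu 0.6 against Cu 0.1, 34% of changes of 0.5 and 88% of changes of 1 were recovered, with 9 false calls. For averaged Cu 0.25 these values were 88% and 98%, with 12 false calls. marco, c1qc and the gene lists were chosen with earlier results of these data known. Named genes were marco and c1qc, up to 4 called members of each list by size of change, the classical complement genes and scavenger receptors measured, and the 5 genes most like each of the pair. Other list members given with values were chosen after those values were seen. The 17 lists cover phagocytes, complement, lysosomes, inflammation, the cell cycle and other cell types. The alternatives changed the batch term (left out, or a random block), the filter (none, or 6), the scaling (quantile or median centring), the variance prior (trended and robust), the array weights and the groups fitted. Others used single title batches, or omitted title batch 3, the 4 pancreas-rich arrays or each array in turn.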

Additional observations from a re-analysis of the deposited data

How the results depend on the processing

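No paired analysis was possible because the labels give no replicate numbers and replicates were numbered in accession order. None of the tested differences of marco and c1qc passed under any alternative or without any array. With Cu 0.6 both genes stayed higher than Cu 0.1 and control in all 72 settings, and their Cu 0.25 differences stayed above 0 in all 210. Over the alternatives the averaged Cu 0.25 difference ran from 0.87 to 1.12 for marco and from 0.81 to 0.99 for c1qc. Signs turned only for CPF or Cu 0.1 against control, where no difference had passed. With array weights marco was −0.18, −0.15 and −0.093 for CPF 0.1, 0.25 and 0.6 against control, and c1qc was 0.049 for Cu 0.1. Without title batch 3 c1qc was 0.068 and 0.011 for CPF 0.1 and CPF 0.6, and with the compared groups alone it was 0.074 and 0.011. Leaving out 1 array gave ranges of −0.15 to 0.30 and −0.23 to 0.24 for marco with CPF 0.1 and 0.25, and of −0.29 to 0.067, −0.16 to 0.11 and −0.21 to 0.026 for c1qc with Cu 0.1, CPF 0.1 and CPF 0.6. The marco difference of CPF 0.25 + Cu 0.25 from CPF 0.25 was 0.88 without the 4 pancreas-rich arrays, and the c1qc difference of Cu 0.6 from control was 1.05 within title batch 2; the cause was not tested. The probe sets called for Cu 0.6 against Cu 0.1 numbered 16, against 25 with no batch term, 1 without title batch 3, 6 with no filter, 709 with array weights and 0 with the groups alone. For Cu 0.6 against control they numbered 171, against 36 without title batch 3, 50 with the groups alone and 374 with array weights. For averaged Cu 0.25 they numbered 458, against 229 without title batch 3 and 782 with array weights. Array weights gave 1460 calls for Cu 0.1, 263 for CPF 0.1, 18 for CPF 0.25 and 396 for CPF 0.6. The comparison of Cu 0.6 with Cu 0.1 within title batch 2 was chosen after seeing the data. Fits within title batch 1 were not run for Cu 0.6, which had no array there.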

Other observations

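After the genes most like marco and c1qc had been seen, the proteasome genes as a whole were read. Over 51 proteasome genes measured, r with marco had a median of 0.62, and 33 exceeded 0.5, against 8.31% of all genes. With c1qc the median was 0.71, and 37 of 51 exceeded 0.5, against 11.3% of all genes. With the group terms removed, the medians were 0.23 for marco and 0.38 for c1qc, beside −0.01 and 0.04 over all genes. These are descriptions of the same 30 arrays, which share the copper groups, and no test was made.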
